A study of Mus musculus with 18 samples.

Results

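De novo lipogenesis is the synthesis of fatty acids from carbohydrate carbon, and it is described here through 10 genes that encode its enzymes and regulators, out of 53465 genes counted in every library. The 10 genes were named as a pathway group after results of these data were known, among them their higher values with quercetin in white fat, so that contrast is given below as a description with no test. All 10 were found by gene symbol and all 10 passed the filter on low counts in each tissue. The 18 sequenced RNA libraries form 6 groups of 3, from white fat, brown fat and skeletal muscle of wild-type C57BL/6J mice kept on normal chow. The vehicle groups received PEG400 at 10% in PBS. The quercetin groups received quercetin hydrate, a plant flavonol, at 0.125 mg/kg by oral gavage, in 100 µL of the same vehicle. The labels do not give the muscle, the fat depots, the feeding state, or the age, sex and number of doses of the sequenced mice. They do not say either that each library is a different animal, so the p-values measure the spread between libraries.

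Citrate leaves the mitochondrion and is cut to acetyl-CoA in the cytosol, acetyl-CoA is carboxylated to malonyl-CoA, and fatty acid synthase builds palmitate from it at the cost of NADPH. In mouse liver and fat the genes of these steps are known to rise together after feeding, through the insulin-regulated factor SREBP-1c and the glucose-sensing factor ChREBP. Brown fat is known for a high capacity for this synthesis, and skeletal muscle fibres for a low one.

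Acly (ENSMUSG00000020917, chromosome 11, 100476353 to 100528000, minus strand) encodes ATP-citrate lyase, which makes cytosolic acetyl-CoA from citrate, and Acss2 (ENSMUSG00000027605, chromosome 2, 155517948 to 155585724, plus strand) encodes the enzyme that makes it from acetate. Acaca (ENSMUSG00000020532, chromosome 11, 84129672 to 84401651, plus strand) encodes acetyl-CoA carboxylase alpha, and Fasn (ENSMUSG00000025153, chromosome 11, 120805846 to 120824547, minus strand) fatty acid synthase. Elovl6 (ENSMUSG00000041220, chromosome 3, 129532355 to 129638495, plus strand) encodes the elongase that extends palmitate to stearate, and Me1 (ENSMUSG00000032418, chromosome 9, 86581371 to 86695953, minus strand) the cytosolic malic enzyme, a source of NADPH. Srebf1 (ENSMUSG00000020538, chromosome 11, 60199089 to 60222581, minus strand) encodes the SREBP-1 factors, and Mlxipl (ENSMUSG00000005373, chromosome 5, 135089890 to 135138382, plus strand) encodes ChREBP. Thrsp (ENSMUSG00000035686, chromosome 7, 97412938 to 97417730, minus strand) encodes Spot14, a nuclear protein of lipogenic tissues that responds to thyroid hormone and carbohydrate. Pnpla3 (ENSMUSG00000041653, chromosome 15, 84167837 to 84187236, plus strand) encodes a lipid droplet protein that is a target of SREBP-1c. Coordinates are those of the GENCODE M21 annotation on GRCm38. Gene counts do not separate the SREBP-1a and SREBP-1c transcripts of Srebf1, nor the alpha and beta forms of ChREBP. Of the exon bases of Acss2, 9.12% overlap other genes, for Pnpla3 it is 6.78%, for Mlxipl 4.24% and for Srebf1 3.11%; for each of the other 6 genes the share is at most 0.78%.

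The promoters of 4 genes are printed because Thrsp, Pnpla3 and Fasn had the widest ranges between brown fat libraries and Mlxipl was the regulator that followed the other genes least. Each line holds the 250 bases before a RefSeq transcription start on GRCm38.p6, in the direction of the gene. Capitals mark the CCAAT box (CCAAT or its complement ATTGG), which binds the factor NF-Y, and the E-box CACGTG, which USF factors and SREBP-1c can bind.
Thrsp promoter, chr7:97417551-97417800, minus strand: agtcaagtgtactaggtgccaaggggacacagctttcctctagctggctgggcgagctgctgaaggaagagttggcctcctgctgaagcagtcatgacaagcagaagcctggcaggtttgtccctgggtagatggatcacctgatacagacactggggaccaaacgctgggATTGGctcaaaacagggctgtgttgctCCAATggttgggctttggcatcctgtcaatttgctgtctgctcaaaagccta
Pnpla3 promoter, chr15:84167566-84167815, plus strand: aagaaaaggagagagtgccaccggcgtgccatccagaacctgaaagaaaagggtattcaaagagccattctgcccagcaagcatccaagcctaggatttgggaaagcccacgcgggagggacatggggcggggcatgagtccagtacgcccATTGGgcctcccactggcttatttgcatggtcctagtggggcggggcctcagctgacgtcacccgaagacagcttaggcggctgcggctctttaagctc
Fasn promoter, chr11:120824548-120824797, minus strand: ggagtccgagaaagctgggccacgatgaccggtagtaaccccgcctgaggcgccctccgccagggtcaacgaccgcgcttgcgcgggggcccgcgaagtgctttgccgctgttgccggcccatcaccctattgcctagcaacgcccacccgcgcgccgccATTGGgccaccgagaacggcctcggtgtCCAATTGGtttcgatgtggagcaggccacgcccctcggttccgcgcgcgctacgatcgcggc
Mlxipl promoter, chr5:135089640-135089889, plus strand: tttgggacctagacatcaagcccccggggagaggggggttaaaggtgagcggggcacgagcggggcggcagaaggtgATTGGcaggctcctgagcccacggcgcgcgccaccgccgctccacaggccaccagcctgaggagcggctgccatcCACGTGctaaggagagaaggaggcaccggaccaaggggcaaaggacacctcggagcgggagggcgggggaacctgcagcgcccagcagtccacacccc
Over windows of 300 bases, from 250 before to 50 after the start, the 10 genes have 14 RefSeq promoters. The CCAAT box, searched on both strands, was in 9 of the 14 (64.3%), from 8 of the 10 genes, and in 37.4% of all 32817 mouse promoter windows. In the Fasn window the CCAAT match at base 189 and the ATTGG match at base 192 overlap. The GC box GGGCGG, which is not in capitals here, was in 7 of the 14 (50.0%) and in 35.6% of all windows. The E-box CACGTG was found in 1 of the 14, the Mlxipl window printed above (7.15% of all windows). The sterol regulatory element TCACNCCAC was found in 1 of the 14, another Mlxipl window (1.24% of all). The direct repeat of the LXR receptors with a spacer of 4 bases was in none of the 14 and in 0.0152% of all windows. A match gives letters in a window and not a bound site.

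The libraries held between 8436308 and 12311345 counts assigned to genes. Levels are given as CPM, the count of a gene relative to all counts of its library, scaled together over the 18 libraries by the TMM method. The tissue labels were checked against marker genes. The 8 brown adipocyte markers summed to between 2240 and 10148 CPM in brown fat and to between 6.70 and 97.6 CPM in white fat, and the 8 muscle fibre markers to between 80313 and 142320 CPM in skeletal muscle. Several libraries stood apart. In white fat vehicle 2 the 10 adipocyte markers summed to 808 CPM, while the other 5 libraries of that tissue held 7891 to 51152 CPM, and none of the 10 markers was at 0 in any library. Brown fat quercetin 3 had the lowest brown adipocyte sum, 2240 CPM, and the highest muscle fibre sum of that tissue, 32149 CPM. In skeletal muscle the adipocyte sum was 10789 CPM in vehicle 3 and 6032 CPM in quercetin 2, against 1091 to 4828 CPM in the other 4. In bulk tissue, fewer cells of a type and less RNA per cell cannot be told apart.

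By the median over the 6 libraries of a tissue, brown fat held the highest level of each gene. Skeletal muscle held the lowest, except for Acss2, Me1 and Mlxipl, which were lowest in white fat. The white fat medians include the quercetin libraries, on which the genes were chosen. To compare genes with each other, CPM was divided by the merged exon length in kilobases. On that per-length scale the median over the 6 brown fat libraries was 1575 CPM per kb for Fasn, 1008 for Thrsp and 381 for Acly. Me1, at 268 CPM per kb, Pnpla3, at 175, Elovl6, at 145, and Acaca, at 144, stood in the middle. Srebf1, at 46.8 CPM per kb, Mlxipl, at 37.2, and Acss2, at 28.3, were the lowest of the 10 in brown fat, and the ranges of neighbouring genes in that order overlapped. In white fat Fasn was again first, at a median of 93.6 CPM per kb, and was followed by Thrsp at 50.9 and Me1 at 43.2. In skeletal muscle Me1 led, at 58.5 CPM per kb, over Thrsp at 18.2 and Fasn at 14.7. The Me1 range in muscle, 47.5 to 71.6 CPM per kb, was narrow, whereas the Fasn range ran from 1.13 to 93.4.

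**Figure D1:**
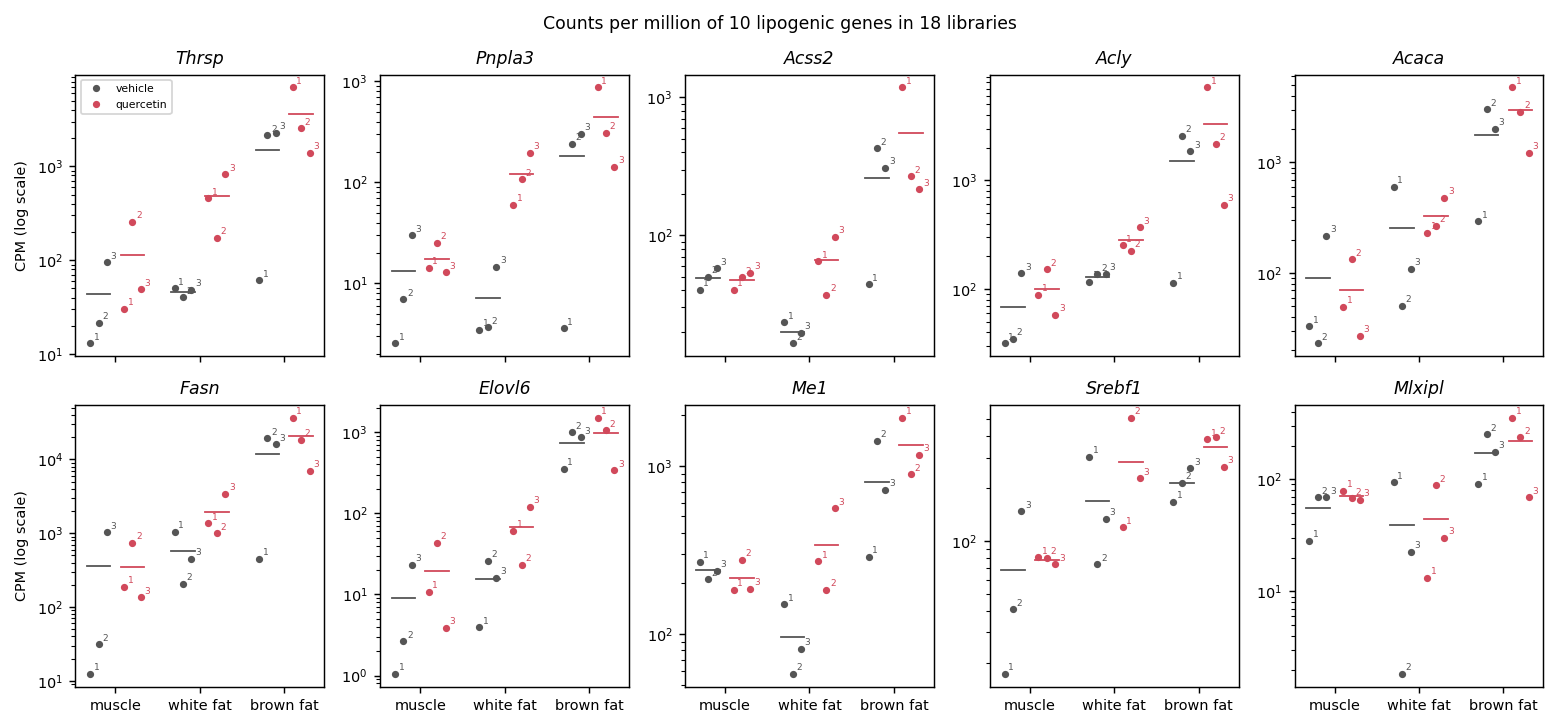
CPM on a log axis for each of the 10 genes in skeletal muscle, white fat and brown fat; each point is a library, numbered by its replicate, grey for vehicle and red for quercetin, and lines are the means of 3. Brown fat vehicle 1 sits far below the other brown fat libraries for most genes, for example at 447 CPM of Fasn against 7051 to 36395.

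In white fat, the tissue on which the group was chosen, all 10 genes had a positive log2 fold change with quercetin, where 48.5% of the 14919 genes tested did. The median of the 10 was 1.72 on the log2 scale, beside -0.014 for all genes tested. In 5 of the 10 genes every quercetin library was above every vehicle library, where 2.36% of all genes tested showed this. These shares are given as a description of how the group was chosen, and no test is attached to them. In edgeR's quasi-likelihood fit of the whole tissue 0 of 14919 genes passed an adjusted p of 0.05 (0%), 122 (0.818%) had an unadjusted p under it, and DESeq2 called 7 genes. Without quercetin 3 the median of the 10 fell to 1.10. Leaving out 1 library also turned 3 genes negative, Acaca to as low as -0.18 without vehicle 2, Srebf1 to -0.028 without quercetin 2 and Mlxipl to as low as -0.94 without quercetin 2.

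The 2 enzymes that supply acetyl-CoA were higher in every quercetin library. Acly stood at 116, 136 and 137 CPM in vehicle 1, 2 and 3 and at 253, 224 and 370 CPM in quercetin 1, 2 and 3. The vehicle values lay close together, and the lowest quercetin library was above all of them. Acss2 stood at 23.3, 16.4 and 19.6 CPM with vehicle and at 64.7, 37.1 and 97.8 CPM with quercetin. Its groups did not overlap either, with quercetin 3 highest and quercetin 2 lowest of the treated libraries. The malic enzyme gene Me1 stood at 150, 57.9 and 81.4 CPM with vehicle and at 271, 183 and 558 CPM with quercetin, again without overlap.

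The genes of chain building overlapped between the groups. Fasn stood at 1049, 208 and 452 CPM with vehicle and at 1363, 1002 and 3443 CPM with quercetin. Vehicle 1 was just above quercetin 2, and quercetin 3 stood alone. Acaca stood at 605, 50.8 and 109 CPM with vehicle and at 231, 269 and 482 CPM with quercetin, so its highest library was vehicle 1. Elovl6 stood at 3.92, 26.0 and 15.9 CPM with vehicle and at 61.2, 23.1 and 120 CPM with quercetin. Here vehicle 1 was the lowest library, and vehicle 2 was above quercetin 2.

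Thrsp and Pnpla3 had the largest fold changes of the 10. Thrsp stood at 50.0, 40.2 and 48.2 CPM with vehicle and at 456, 173 and 821 CPM with quercetin, and its log2 fold change was 3.36 ± 0.63 (SE, n = 3 and 3). Pnpla3 stood at 3.49, 3.67 and 14.5 CPM with vehicle and at 60.0, 107 and 195 CPM with quercetin, and its log2 fold change was 4.04 ± 0.82 (SE). The groups did not overlap in either gene. The 2 transcription factor genes and Acaca had the smallest fold changes, with Acaca at 0.31 ± 0.96 (SE). Srebf1 stood at 303, 73.7 and 134 CPM with vehicle and at 120, 506 and 228 CPM with quercetin, and its log2 fold change was 0.72 ± 0.76 (SE). Mlxipl stood at 94.1, 1.84 and 22.6 CPM with vehicle and at 13.3, 88.4 and 30.1 CPM with quercetin, and its log2 fold change was 0.11 ± 1.31 (SE). For both factor genes vehicle 1 and quercetin 2 were the highest libraries.

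Vehicle 1 and quercetin 2 were also the white fat libraries with the highest adipocyte marker sums, 51152 and 26566 CPM, and the lowest sums of 6 B and T cell markers, 1.53 and 4.67 CPM, against 518 to 2213 CPM in the other 4. Each gene's log2 CPM was therefore also set against the mean log2 CPM of the 10 adipocyte markers of the same library. On that relative scale 6 of the 10 genes had a higher mean with quercetin, the median difference was 0.42, and in 0 of the 10 were the groups separate. Pnpla3 kept a difference of 2.92 and Thrsp of 1.84 on this scale, and Acly stood at -0.20. Vehicle 2, with an adipocyte mean of 4.52 against 8.06 to 10.8 in the others, was the highest vehicle library on it for each of the 10 genes. Pnpla3 stood at -8.98, -2.61 and -4.63 with vehicle and at -2.16, -3.47 and -1.83 with quercetin. Acly stood at -3.96, 2.56 and -1.40 with vehicle and at -0.083, -2.41 and -0.91 with quercetin. Shares over all genes were not computed on this scale in either fat. Markers of the liver, another lipogenic tissue, also lay apart between the groups: the 4 hepatocyte markers (Alb, Apoa1, Ttr and Serpina1a) summed to 15.9 to 41.6 CPM with quercetin and to 0.751 to 8.83 CPM with vehicle. None of the 4 was at 0 with quercetin, and 1 was at 0 in each vehicle library. The part of cell content in the difference was not tested. Without vehicle 2, the library with few adipocyte transcripts, the median log2 fold change on the unadjusted scale was 1.40 and 8 of the 10 genes were positive. Within the flow cell that carried 4 of the 6 white fat libraries, named H7H2WDSXX in the labels, the median was 2.12 and all 10 were positive. The libraries on the other flow cell were vehicle 1 and quercetin 2, those with the highest adipocyte and lowest B and T cell sums. In white fat, flow cell and that difference in markers cannot be told apart.

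**Figure D2:**
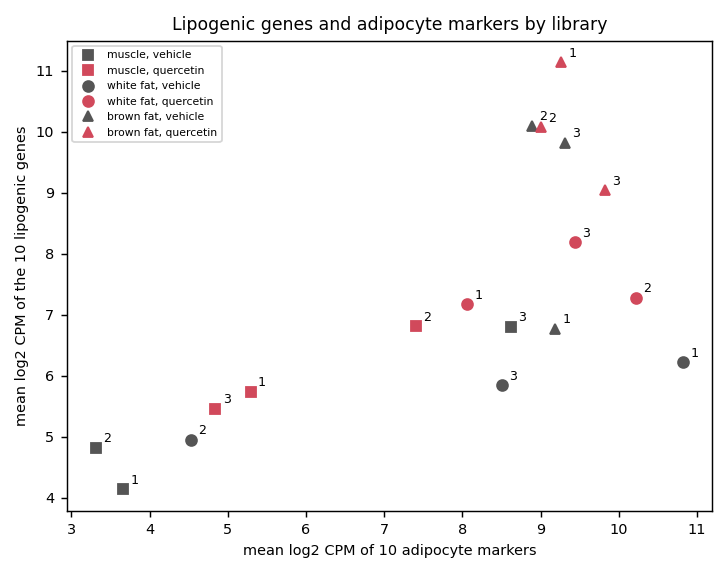
Mean log2 CPM of the 10 lipogenic genes against mean log2 CPM of 10 adipocyte markers, 1 point per library, numbered by replicate, with shape for tissue and colour for treatment. Brown fat vehicle 1 has 6.77 on the vertical axis at an adipocyte mean of 9.19, where the other brown fat libraries have 9.04 to 11.1; white fat vehicle 2 is low on both axes.

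In brown fat all 10 genes had a positive log2 fold change with quercetin, where 54.9% of the 13274 genes tested did, and none of the 10 passed the test. The median of the 10 was 0.75 on the log2 scale, beside 0.051 for all genes tested. Over the whole tissue 0 of 13274 genes (0%) passed an adjusted p of 0.05 in edgeR, 241 (1.82%) had an unadjusted p under it, and DESeq2 called 2 genes. The adjusted p was 0.977 for each of the 10 genes, in edgeR's quasi-likelihood test with Benjamini-Hochberg adjustment over all genes of the tissue. In 1 of the 10, Srebf1, every quercetin library was above every vehicle library, where 3.01% of all genes tested showed this. The spread within each group was wide: Fasn averaged 11923 ± 10086 CPM with vehicle and 20665 ± 14786 CPM with quercetin (SD, n = 3).

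Brown fat vehicle 1 and quercetin 1 lay at the 2 ends of the scale. Fasn stood at 447, 19381 and 15940 CPM in vehicle 1, 2 and 3 and at 36395, 18549 and 7051 CPM in quercetin 1, 2 and 3. Its share of all gene counts ran from 0.0446% in vehicle 1 to 2.72% in quercetin 1. Vehicle 1 was below every other library, and quercetin 3 was below vehicle 2 and 3. Acly stood at 114, 2563 and 1847 CPM with vehicle and at 7187, 2181 and 595 CPM with quercetin, in the same order of libraries at both ends. Acaca stood at 294, 3025 and 2011 CPM with vehicle and at 4782, 2890 and 1218 CPM with quercetin. Acss2 stood at 43.9, 427 and 308 CPM with vehicle and at 1185, 267 and 215 CPM with quercetin. For these 4 enzyme genes, 1 quercetin library was above all vehicle libraries and the others lay among vehicle 2 and 3 or under them.

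Thrsp stood at 61.2, 2141 and 2272 CPM with vehicle and at 6956, 2548 and 1397 CPM with quercetin. Pnpla3 stood at 3.61, 240 and 303 CPM with vehicle and at 872, 308 and 142 CPM with quercetin. These were the genes with the widest spread in brown fat: the highest library exceeded the lowest 114-fold for Thrsp and 242-fold for Pnpla3. The log2 fold change was 1.26 ± 1.13 (SE) for Thrsp, with an unadjusted 95% interval of -1.39 to 3.91. For Pnpla3 it was 1.25 ± 1.25 (SE), with an interval of -1.68 to 4.18. Both intervals hold 0 and also the white fat estimates of 3.36 and 4.04.

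Elovl6, Me1 and the factor genes varied less. Elovl6 stood at 354, 1000.2 and 866 CPM with vehicle and at 1492, 1056 and 340 CPM with quercetin. Me1 stood at 289, 1406 and 722 CPM with vehicle and at 1923, 892 and 1167 CPM with quercetin. For both genes the groups overlapped. Srebf1 stood at 168, 215 and 261 CPM with vehicle and at 383, 393 and 266 CPM with quercetin, and its log2 fold change was 0.70 ± 0.30 (SE) with an adjusted p of 0.977 in edgeR. The gap between its groups was narrow, from 261 CPM in vehicle 3 to 266 CPM in quercetin 3. Mlxipl stood at 90.8, 251 and 175 CPM with vehicle and at 352, 237 and 69.1 CPM with quercetin, and its lowest library was a quercetin one.

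The brown fat median rested on single libraries. Without quercetin 1 it fell to 0.17, with 6 of the 10 genes positive, without vehicle 1 it was 0.42, and without vehicle 2 it was 1.38. The 4 hepatocyte markers summed to 120, 7.59 and 8.36 CPM in quercetin 1, 2 and 3 and to 0.501 to 1.16 CPM with vehicle, so that all 3 quercetin libraries were above all vehicle libraries, as in white fat. Ttr was at 0 in every brown fat vehicle library. The part of those transcripts in the brown fat values was not tested. Without quercetin 3, the library with the most muscle fibre transcripts, the median was 1.12 and all 10 genes were positive. The muscle fibre markers summed to 6041, 270 and 2044 CPM in brown fat vehicle 1, 2 and 3. In quercetin 1, 2 and 3 they summed to 915, 5.97 and 32149 CPM. The adipocyte marker sums of the 6 brown fat libraries lay between 20582 and 27002 CPM, with vehicle 1 at 22324 CPM inside that range. Relative to those markers, 9 of the 10 genes had a higher mean with quercetin in brown fat, by a median of 0.90, and in 0 of the 10 were the groups separate.

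**Figure D3:**
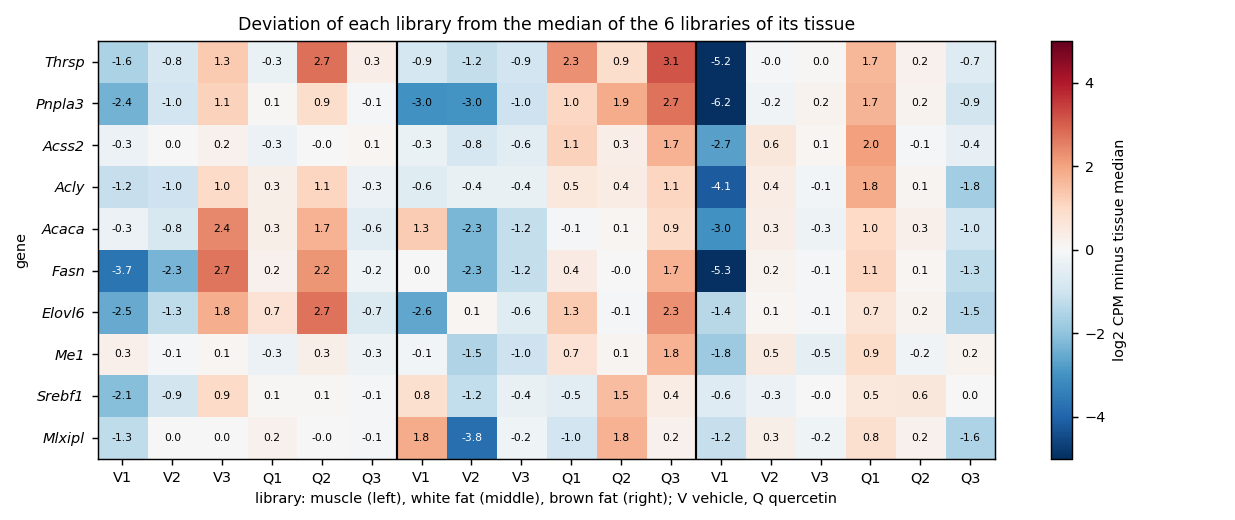
Heat map of log2 CPM minus the median of the 6 libraries of the same tissue, for 10 genes in rows and 18 libraries in columns; V is vehicle, Q is quercetin, and the number is the replicate. The blue column of brown fat vehicle 1 spans nearly all genes, and in white fat Srebf1 and Mlxipl are both highest in vehicle 1 and quercetin 2.

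In skeletal muscle no gene of the group passed the test, and the values followed single libraries. Of the 10 genes 6 had a positive log2 fold change with quercetin, where 47% of the 13562 genes tested did. The median of the 10 was 0.23, beside -0.034 for all genes tested. Over the whole tissue 0 of 13562 genes (0%) passed an adjusted p of 0.05 in edgeR, 406 (2.99%) had an unadjusted p under it, and DESeq2 called 0. In 0 of the 10 genes were the groups separate, where 5.11% of all genes tested had every quercetin library above every vehicle library and 4.14% every one below.

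Fasn stood at 12.3, 31.2 and 1022 CPM with vehicle and at 186, 734 and 135 CPM with quercetin. Vehicle 3 and quercetin 2 were the high libraries, and they were those with the most adipocyte transcripts among the 6. Acaca stood at 33.0, 23.2 and 216 CPM with vehicle and at 49.7, 134 and 27.1 CPM with quercetin, with the same high pair. Acly stood at 31.7, 35.0 and 140 CPM with vehicle and at 88.2, 151 and 57.6 CPM with quercetin. Elovl6 stood at 1.05, 2.65 and 23.3 CPM with vehicle and at 10.9, 43.4 and 3.90 CPM with quercetin. Vehicle 3 and quercetin 2 were the highest of their groups for all 4 of these enzyme genes. Thrsp stood at 13.0, 21.5 and 94.9 CPM with vehicle and at 30.5, 259 and 49.1 CPM with quercetin, again with quercetin 2 and vehicle 3 on top. Pnpla3 stood at 2.56, 6.98 and 30.0 CPM with vehicle and at 14.3, 25.2 and 12.9 CPM with quercetin.

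Acss2 and Me1 were nearly level across the muscle libraries. Acss2 stood at 40.2, 49.9 and 57.7 CPM with vehicle and at 40.2, 49.5 and 53.2 CPM with quercetin. Me1 stood at 270, 212 and 239 CPM with vehicle and at 183, 275 and 186 CPM with quercetin. The highest library exceeded the lowest 1.44-fold for Acss2 and 1.51-fold for Me1, against 82.8-fold for Fasn. The log2 fold change was -0.090 for Acss2, with an unadjusted 95% interval of -0.69 to 0.51. For Me1 it was -0.21, with an interval of -0.91 to 0.50. Srebf1 stood at 17.3, 40.7 and 148 CPM with vehicle and at 80.9, 80.2 and 73.8 CPM with quercetin, so that the 3 treated libraries lay close together and the vehicle libraries lay on either side of them. Mlxipl stood at 28.4, 69.1 and 69.1 CPM with vehicle and at 79.4, 67.9 and 65.6 CPM with quercetin, with vehicle 1 as the low library.

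Leaving out vehicle 3 raised the muscle median to 1.47, with 9 of the 10 genes positive and Fasn at 3.98, and no gene passed the test. Leaving out quercetin 2 gave -0.13, vehicle 1 -0.11 and vehicle 2 -0.0096. Leaving out both adipocyte-rich libraries, vehicle 3 and quercetin 2, an alternative added after the values were seen, gave a median of 1.14 with 9 of the 10 genes positive. The 8 brown adipocyte markers summed to 913 CPM in quercetin 2 and to 286 to 724 CPM in the other 5 muscle libraries. In quercetin 2 Ucp1, the uncoupling protein of brown fat, stood at 280 CPM against 0 to 0.699 CPM in the others, and the lipid droplet gene Cidea at 199.8 CPM against 0.931 to 18.9 CPM. The part of white or brown adipocyte transcripts in the muscle values was not tested. The difference between the quercetin effects of brown fat and muscle was tested in the fit of 18 libraries, and the adjusted p was 1 for each of the 10 genes, with 0 of 16388 genes (0%) past the threshold in edgeR and 223 (1.36%) at an unadjusted p under 0.05. For Fasn that difference was 0.81 ± 1.97 (SE) on the log2 scale, with an unadjusted 95% interval of -3.37 to 4.99. The differences that involve white fat were not tested, because the genes were chosen on that tissue.

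**Figure D4:**
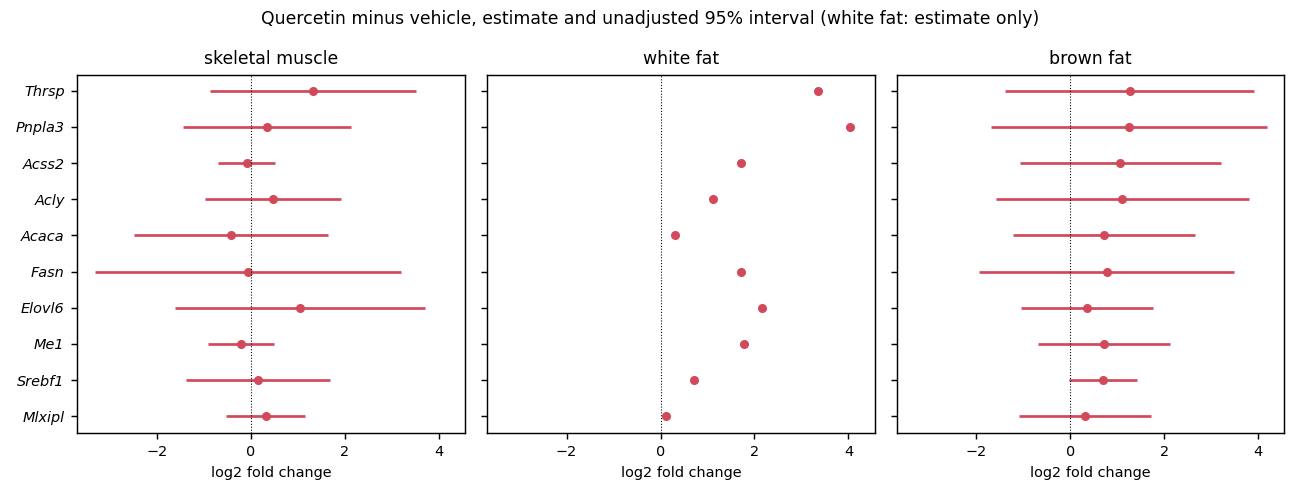
Log2 fold change of quercetin against vehicle for each of the 10 genes in 3 tissues; points are edgeR estimates and bars unadjusted 95% intervals, left out for white fat, where the genes were chosen. In brown fat all 10 points are above 0, from 0.32 for Mlxipl to 1.26 for Thrsp, and every bar crosses 0.

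The libraries numbered vehicle 1 were low for most of the 10 genes in skeletal muscle and brown fat, and not in white fat. Vehicle 1 was the lowest of the 6 libraries for 8 of the 10 genes in skeletal muscle, for 3 in white fat and for 8 in brown fat. In white fat vehicle 1 was also the highest library for 2 of the genes, and vehicle 2 was the lowest for 7. In brown fat the median gene of vehicle 1 was 8.30-fold below the median of the other 5 libraries. The ratio of Fasn to Acaca counts, which needs no scaling between libraries, was lowest in vehicle 1 in each tissue. It was 0.375 in muscle, against 1.34 to 5.49 in the other 5 libraries. In white fat it was 1.73, against 3.72 to 7.15, and in brown fat 1.52, against 5.79 to 7.93. White fat vehicle 1 had the highest Acaca of that tissue and more Fasn than vehicle 2 and 3. The low ratio there therefore does not show low Fasn. The ratios of Thrsp to Acaca and of Pnpla3 to Srebf1 were also lowest in vehicle 1 in each tissue. The ratio of Elovl6 to Me1 was lowest in vehicle 1 in muscle and white fat. In brown fat that ratio was highest in vehicle 1, at 1.226, against 0.292 to 1.199 in the other 5 libraries. Pdk4, a kinase that restrains pyruvate oxidation and is known to rise on fasting, stood at 7697 CPM in muscle vehicle 1, against 1657 to 2526 CPM in the other 5. In white fat vehicle 1 it stood at 1315 CPM, against 27.5 to 107 CPM, and in brown fat vehicle 1 at 3122 CPM, inside the range of 1161 to 3438 CPM of the others. Txnip, a target of ChREBP that restrains glucose uptake, stood at 2245 CPM in muscle vehicle 1, against 411 to 633 CPM, and at 2383 CPM in white fat vehicle 1, against 331 to 779 CPM. In brown fat vehicle 1, where the 10 genes were lowest against the other libraries, Txnip stood at 1284 CPM, inside the range of 565 to 1530 CPM of the other 5. The labels do not say whether the 3 libraries with that number come from 1 animal. They do not give the feeding state either, and its part in these values was not tested.

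Between tissues, 9 of the 10 genes were higher in brown than in white fat, averaged over both treatments, and Srebf1 was not called. In the same test 18.3% of the 16388 genes tested were higher and 22% lower. Fasn averaged 16294 ± 12291 CPM in brown fat and 1253 ± 1153 CPM in white fat (SD, n = 6), a log2 difference of 3.90 ± 1.10 (SE) with an adjusted p of 0.0114 in edgeR. Elovl6 averaged 851 ± 443 and 41.6 ± 42.7 CPM, a log2 difference of 4.71 ± 0.86 (SE, adjusted p 0.000787 in edgeR), and was the only gene of the 10 with all 6 brown fat libraries above all 6 white fat libraries (8.19% of all genes tested). Thrsp differed by 3.96 ± 0.86 (SE) and Acss2 by 3.39 ± 0.53 (SE) on the log2 scale. Srebf1 averaged 281 ± 90.3 CPM in brown fat and 228 ± 159 CPM in white fat, a log2 difference of 0.31 ± 0.47 (SE, adjusted p 0.629 in edgeR). Its unadjusted 95% interval of -0.69 to 1.31 lies under the estimates of the other 9 genes, which ran from 2.22 for Mlxipl to 4.71 for Elovl6. The contrast of Srebf1 with the other genes was itself not tested.

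Against skeletal muscle, brown fat was higher in 9 of the 10 genes, where 13.9% of all genes tested were higher and 13.3% lower. Mlxipl, the exception, averaged 196 ± 106 CPM in brown fat and 63.2 ± 17.7 CPM in muscle (SD, n = 6), a log2 difference of 1.63 ± 0.68 (SE) with an adjusted p of 0.088 in edgeR. All 6 brown fat libraries were above all 6 muscle libraries for Acaca, Elovl6, Me1 and Srebf1, where 7.16% of all genes tested showed this. Elovl6 had the largest estimate, 5.99 ± 0.91 (SE) on the log2 scale, and Fasn followed at 5.47 ± 1.19 (SE). Fasn overlapped between the tissues, since brown fat vehicle 1, at 447 CPM, lay under 2 muscle libraries. Between the vehicle groups alone, 6 of the 10 genes were higher in brown than in white fat, where 9.02% of all genes tested were, and 5 were higher in brown fat than in muscle, where 4.64% were. With the replicate number as a block in a fit of the 9 vehicle libraries, added after the values were seen, those counts were 2, Acss2 and Elovl6, and 1, Elovl6. Of all 14556 genes tested in that fit, 730 were higher in brown than in white fat and 325 higher in brown fat than in muscle. The genes were named with their higher values with quercetin than with vehicle in white fat known. Such a choice favours genes that are low in the white fat vehicle libraries, the low side of both vehicle counts against white fat. Those counts are therefore a description.

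White fat differed from skeletal muscle in 1 of the 10 genes, Srebf1, where 28.6% of all genes tested were higher in white fat and 21.7% lower. Srebf1 averaged 228 ± 159 CPM in white fat and 73.4 ± 44.4 CPM in muscle (SD, n = 6), a log2 difference of 1.59 ± 0.48 (SE) with an adjusted p of 0.0131 in edgeR. Acaca, at 1.86 ± 0.75 (SE) on the log2 scale and an adjusted p of 0.0509 in edgeR, lay at the threshold. The white fat libraries of both treatments, on whose difference the genes were chosen, enter this contrast. In 0 of the 10 genes were all 6 white fat libraries above all 6 muscle libraries, where 9.41% of all genes tested showed this. Between the vehicle groups alone, which hold part of the libraries the genes were chosen on, 0 of the 10 were called. Of all genes tested, 31% were called in either direction there. Leaving out muscle vehicle 3, the library with the most adipocyte transcripts, raised the count to 5, with Acly, Acaca, Fasn and Elovl6 added to Srebf1. In that fit 8408 of 16986 genes tested were called in either direction. Without the 4 libraries that stood apart, an alternative added after the values were seen, the count was 6, beside 7265 of 16763 genes tested.

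Scaling by library totals in place of TMM moved the median of all genes by -0.59 on the log2 scale between brown and white fat, and by 0.61 between white fat and muscle. The higher share of all calls went from 45.3% to 19.4% between brown and white fat, and from 56.8% to 79.0% between white fat and muscle. Under library totals Srebf1 stood at -0.25 between brown and white fat, and Acss2 and Me1 stood at 0.19 and 0.26 between white fat and muscle, where the TMM values were -0.42 and -0.33.

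**Figure D5:**
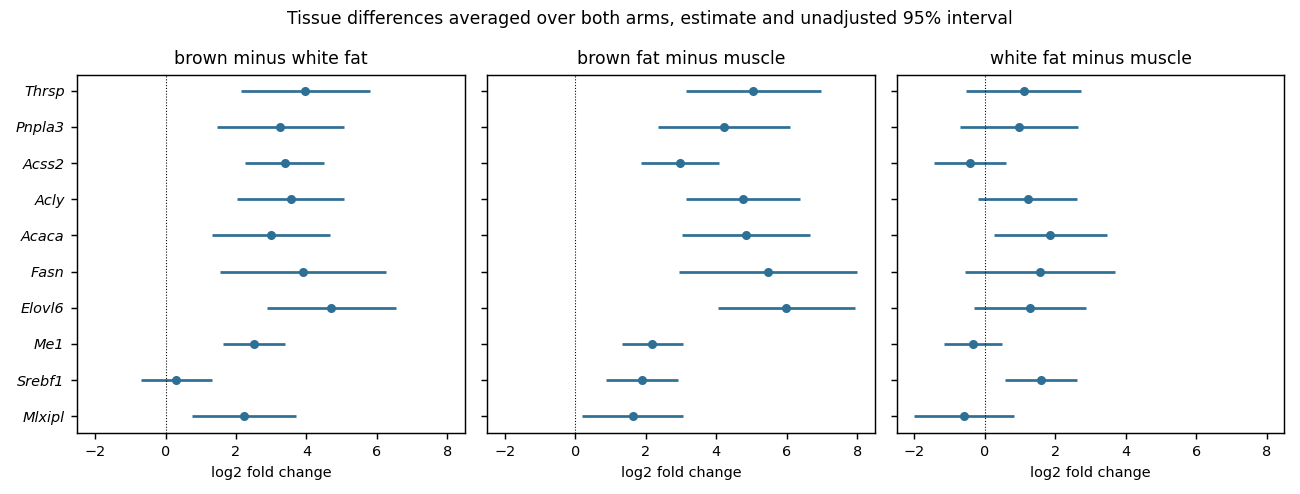
Log2 differences between tissues for the 10 genes, averaged over vehicle and quercetin; points are edgeR estimates from a fit of 18 libraries and bars unadjusted 95% intervals. All 10 points lie above 0 in the brown fat panels, with the Srebf1 bar crossing 0 against white fat, and in the panel of white fat against muscle 7 of the 10 points are above 0.

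The rest of the pathway was read from lists of related genes, chosen like the 10 with earlier results known. With quercetin, 0 genes of the 5 lists passed the adjusted test in edgeR in any tissue, as was the case for all genes. In white fat, 18 of 22 tested genes of carbon and NADPH supply were positive, with a median log2 fold change of 0.27, where 48.5% of all genes were. Of the other enzymes of fatty acid synthesis, elongation and activation, 13 of 24 were positive in white fat, with a median of 0.073, and 13 of 24 in brown fat, with a median of 0.17. Of the triglyceride synthesis genes, 9 of 15 were positive in white fat, with a median of 0.072, and 6 of 16 in brown fat, with a median of -0.19. In white fat 2 of 10 glucose and lipid target genes were positive, with a median of -0.36 and a range of -1.09 to 2.99. Of these genes 1 lay wholly above vehicle, where 2.36% of all genes did, and 1 wholly below. Angptl8 stood at 1.09, 0.751 and 0.745 CPM with vehicle, from 9 to 10 counts, and at 5.16, 5.62 and 10.1 CPM with quercetin in white fat. The carbon and NADPH list was also positive in 21 of 24 genes in brown fat, with a median of 0.28, where 54.9% of all genes were. The 26 other regulators had medians of 0.056 in muscle, -0.15 in white fat and 0.038 in brown fat. Slc25a1, the mitochondrial citrate carrier, stood at 144, 51.7 and 81.3 CPM with vehicle and at 242, 175 and 388 CPM with quercetin in white fat, with no overlap. In brown fat Slc25a1 stood at 96.4, 1269 and 844 CPM with vehicle and at 2537, 800.1 and 908 CPM with quercetin, with vehicle 1 low as for the 10 genes. In brown fat Mid1ip1, which encodes a partner of Spot14 and a regulator of acetyl-CoA carboxylase, stood at 31.3, 19.1 and 31.4 CPM with vehicle. With quercetin it stood at 50.3, 32.1 and 92.7 CPM, so its groups lay apart by a narrow gap. The highest value was that of quercetin 3, the library with the highest muscle fibre sum. The log2 fold change of Mid1ip1 was 1.13 ± 0.45 (SE, adjusted p 0.977 in edgeR). Of the 24 tested genes of its list, 1 lay wholly above vehicle in brown fat and 2 wholly below. Of all genes tested, 3.01% lay wholly above, which is near the share of the list, and the share wholly below is not given.

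Between brown and white fat, 20 of 24 tested genes of carbon and NADPH supply were higher in brown fat and 1 was lower, beside 18.3% and 22% of all genes. Citrate synthase, Cs, averaged 1950 ± 671 CPM in brown fat and 210 ± 59.8 CPM in white fat (SD, n = 6), a log2 difference of 3.22 ± 0.34 (SE). Of the other enzymes of fatty acid synthesis, elongation and activation 14 of 25 were higher and 2 lower, led by Elovl3, an elongase of brown fat, at 7.68 ± 1.41 (SE) on the log2 scale. Of 16 triglyceride synthesis genes 8 were higher and 0 lower. The regulators were mixed, with 6 of 26 higher and 3 lower, and Ppargc1b, a coactivator of SREBP-1c, was at 2.86 ± 0.57 (SE). Of 11 tested target genes 1 was higher, Angptl8, at 4.01 ± 0.75 (SE), and 3 were lower, among them the cholesterol exporter gene Abcg1 at -1.87 ± 0.36 (SE).

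Against muscle, brown fat was higher in 14 of 24 carbon and NADPH genes and lower in 0, beside 13.9% and 13.3% of all genes, and Pgd, an NADPH-making enzyme of the pentose phosphate pathway, differed by 3.64 ± 0.37 (SE) on the log2 scale. It was higher in 11 of 25 other fatty acid enzymes, in 9 of 16 triglyceride genes, in 7 of 26 regulators, with 4 lower, and in 6 of 11 targets. White fat against muscle split the carbon and NADPH list, with 8 of 24 higher and 14 lower, beside 28.6% and 21.7% of all genes. The hexokinase gene Hk2, at -3.43 ± 0.37 (SE), and the pyruvate kinase gene Pkm, at -2.73 ± 0.35 (SE), were among the lower ones. Among the regulators 8 of 26 were higher in white fat and 4 lower, near the shares of all genes. Srebf2, the paralogue of Srebf1, was higher by 1.46 ± 0.27 (SE), and its escort gene Scap by 0.68 ± 0.16 (SE).

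Among themselves the 10 genes followed each other over the 18 libraries, with the factor genes least alike. The median Pearson correlation of a gene's log2 CPM with the other 9 was highest for Thrsp, at 0.90, and lowest for Mlxipl, at 0.53, and Srebf1, at 0.69. After the mean of each tissue was removed it was 0.81 for Thrsp, 0.49 for Srebf1 and 0.43 for Mlxipl. The genes most like the mean of the 10 over the 18 libraries were Nsdhl, an enzyme of sterol synthesis, at 0.97, Tlcd1, Adcy10, Proca1, Ifi27, Galm, Pmvk, another enzyme of sterol synthesis, and Chpt1, at 0.95. With tissue means removed, Tlcd1 was first, at 0.94, followed by Nsdhl, Slc25a1, Proca1, Tkt, a transketolase of the pentose phosphate pathway, Tfr2, Acbd4 and Hnmt, at 0.90. These correlations describe 18 libraries that share tissue, library composition and depth. The 10 genes were also named with their higher values with quercetin in white fat known. That shared difference stays in the values after tissue means are removed, so the correlations among the 10 are a description.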

How the data were processed

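The deposited files hold whole-number counts per gene, and the authors made them with HISAT2 and HTSeq on mm10, per the submitters' processing notes, which also name DESeq2, without versions. Which annotation was counted, and whether by strand, is not given in the sources used here; reads of overlapping genes on opposite strands may therefore not be separated. The 5 summary lines of each file were left out; counts without a feature were 2.53% to 9.11% and ambiguous ones 6.47% to 9.84%. Each library held 8436308 to 12311345 gene counts.

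Counts were tested with edgeR 4.0.16 in R 4.3.3 (filterByExpr at 10 counts and a total of 15, TMM scaling, quasi-likelihood test, Benjamini-Hochberg adjustment over all genes, threshold 0.05, 2-sided), per tissue for quercetin and in 1 fit of 18 libraries for tissue and interaction contrasts; the procedure was checked on simulated counts. Fold changes come from those fits and CPM levels from TMM over 18 libraries, with a prior count of 1 on the log2 scale. The alternative tool was DESeq2 1.42.0. Sequences are from RefSeq, GRCm38.p6.

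The members and the gene lists were chosen with earlier results of these data known. All 10 members are described; from each list up to 3 genes with the smallest p per comparison and, by correlation with the members' mean, the 8 most alike genes are named. The main fits have no replicate block, since the labels do not say what the replicate numbers share; a block is an alternative.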

Additional observations from a re-analysis of the deposited data

How the results depend on the processing

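With quercetin, 0 of the 10 genes were called in muscle and brown fat under every alternative run; no such count is given for white fat, where they were chosen. Over all genes DESeq2 called 7 in white fat and 2 in brown fat, where leaving out 1 library gave 0 to 1, and muscle had 32 without a filter on low counts. The muscle median of the 10 ran from -0.13 to 1.47 when 1 library was left out. Muscle genes that changed sign when 1 library was left out ran from -0.12 to 1.84 (Pnpla3), -0.30 to 1.40 (Srebf1), -0.20 to 0.042 (Acss2), -1.27 to 1.27 (Acaca), -1.18 to 3.98 (Fasn), -0.15 to 2.66 (Thrsp) and -0.32 to 3.35 (Elovl6). In brown fat Acss2 ran from -0.078 to 1.65, Acly from -0.11 to 1.75, Elovl6 from -0.077 to 0.75 and Mlxipl from -0.17 to 0.74. Without muscle vehicle 3 and quercetin 2, Acss2 stood at 0.025, Acaca at 0.42 and Fasn at 2.87, and within the main flow cell muscle Fasn stood at 0.33. Between vehicle groups alone, 3106 genes were called between brown and white fat, 1689 and 5 of the 10 between brown fat and muscle, and 5076 and 0 of the 10 between white fat and muscle, where Pnpla3 stood at -0.87. The count of the 10 between white fat and muscle was 3 with library totals, 2 with DESeq2, 2 without a filter, 6 without the 4 libraries that stood apart and 1 to 5 without 1 library. In the same order, the counts over all genes were 9930, 8671, 8047, 7265 and 7194 to 8843. Library totals turned Srebf1 to -0.25 between brown and white fat, and Acss2 to 0.19 and Me1 to 0.26 between white fat and muscle. The cause of these changes was not tested.

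Same-numbered libraries were compared by the correlation of their deviations from the group means. For quercetin and vehicle of 1 tissue it was over 0.1 in 2 of 9 pairs. Across tissues it was over 0.1 in all 3 vehicle pairs of brown fat and muscle (0.11 to 0.24) and of white fat and muscle (0.19 to 0.30), in 2 of 3 vehicle pairs of brown and white fat, and in 2 of the 9 quercetin pairs. Whether libraries of the same number share an animal across tissues was not tested, and the labels do not state it. With the replicate block 0 of the 10 genes were called for quercetin in muscle and brown fat, 8 were higher in brown than in white fat (Fasn was lost), and muscle Acaca and Fasn stood at 0.15 and 2.64. Over all genes, 3213 of 16388 were higher in brown than in white fat with that block. With the block in the 9 vehicle libraries alone, which leaves fewer residual degrees of freedom, 1114 genes and 2 of the 10 were called between brown and white fat, 871 and 1 between brown fat and muscle, and 3252 and 0 between white fat and muscle, where Pnpla3 stood at -0.36. The white fat vehicle libraries, on which the genes were chosen together with the quercetin ones, enter the contrasts with white fat.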
